A study of Ovis aries with 3 samples.

Results

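The genes of retinoic acid handling were described here across whole sheep embryos profiled by droplet single-cell RNA sequencing. The 9 genes were taken by symbol from the 26478 genes that the count tables list. They are *STRA6*, *ALDH1A2*, *CRABP1*, *CRABP2*, *RARA*, *RARB*, *RARG*, *CYP26A1* and *CYP26B1*, and 8 of them had enough counts for a comparison. *CYP26B1*, with 5, 3 and 9 counts in the 3 libraries, did not. The libraries were E19 HSTS (a day 19 embryo of Hulunbuir short-tailed sheep, a breed whose animals in the study carried a coding change in the tail gene *T*), E19 HS (a day 19 embryo of Hu sheep) and E16 HS (day 16, Hu sheep). The E16 HS label names 1 embryo while the design text of the series lists 3, so it could not be settled whether this library is a pool. Each condition is 1 library, and therefore breed, day, embryo and library cannot be told apart.

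Retinoic acid is a small lipid made from vitamin A that acts as a local signal in the embryo. *STRA6* is a cell-surface receptor that takes up retinol from its carrier protein, and *ALDH1A2* makes retinoic acid from retinaldehyde, chiefly in the trunk mesoderm. *CRABP1* and *CRABP2* bind retinoic acid in the cytoplasm, *RARA*, *RARB* and *RARG* are the nuclear receptors that it activates, and *CYP26A1* and *CYP26B1* are the cytochrome P450 enzymes that break it down. In vertebrate embryos, synthesis in the somites and breakdown in the tail bud keep retinoic acid low at the growing posterior end.

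In all, 31576 cells were kept, 9618 from the E19 HSTS embryo, 10629 from E19 HS and 11329 from E16 HS, with 88733467 to 113213654 unique molecular identifiers (UMIs, counted RNA molecules) a library. Median depth was 8675, 6900 and 9046 UMIs a cell, in that order, which is the order of every group of 3 values that follows. Pairs of libraries shared 31 to 37 cell barcodes. Cells were grouped by whether they held at least 1 UMI of *SOX2*, *NEFM*, *MEOX1*, *CDX2*, *DCN*, *EPCAM* or *CDH16*. These marker classes overlapped, and 11.5, 12.5 and 18.3% of the cells held 2 or more of the 7 markers. Somite genes were enriched 3.87- to 5.07-fold in *MEOX1* cells and tail bud genes 9.62- to 29-fold in *CDX2* cells. In E19 HSTS, however, 7 of the 9 listed tail bud genes had no UMI in the 176 *CDX2* cells. The *DCN* cells of E19 HSTS and E19 HS also held 22.3- and 20.1-fold more of the extraembryonic endoderm genes *APOA2* and *FGG* than other cells, where those of E16 HS held less (ratio 0.335). Blood cells, which made up 27.1, 13.1 and 17.3% of the libraries, were taken as the comparison for free RNA. They were deeper than the rest, at 17626.5, 17802 and 14331 UMIs against 7195.5, 6348 and 8054.

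Levels are UMIs per 1000000 UMIs of the library or cell class (CPM), with exact Poisson 95% intervals that cover counting error only. As tags come from the 3′ end and depend on the transcript, levels were compared between cells and not between genes. In the summed counts, fewer cells of a type and less RNA in each cell cannot be told apart.

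Between the libraries, the breakdown enzyme *CYP26A1* and the receptor *RARG* differed most and the synthesis enzyme *ALDH1A2* least. *CYP26A1* stood at 0.382 CPM (0.27 to 0.524) in E19 HSTS and 0.8 (0.625 to 1.01) in E19 HS, where E16 HS had 2.72 (2.43 to 3.04), from 38, 71 and 308 UMIs. The 3 intervals did not overlap. *RARG* stood at 5.53 CPM (5.08 to 6.02), 5.65 (5.16 to 6.16) and 11.5 (10.8 to 12.1), so that both day 19 libraries lay together and E16 HS lay above them. *ALDH1A2* was level at 6.32 (5.83 to 6.83), 6.38 (5.86 to 6.93) and 6.51 CPM (6.05 to 7).

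**Figure D1:**
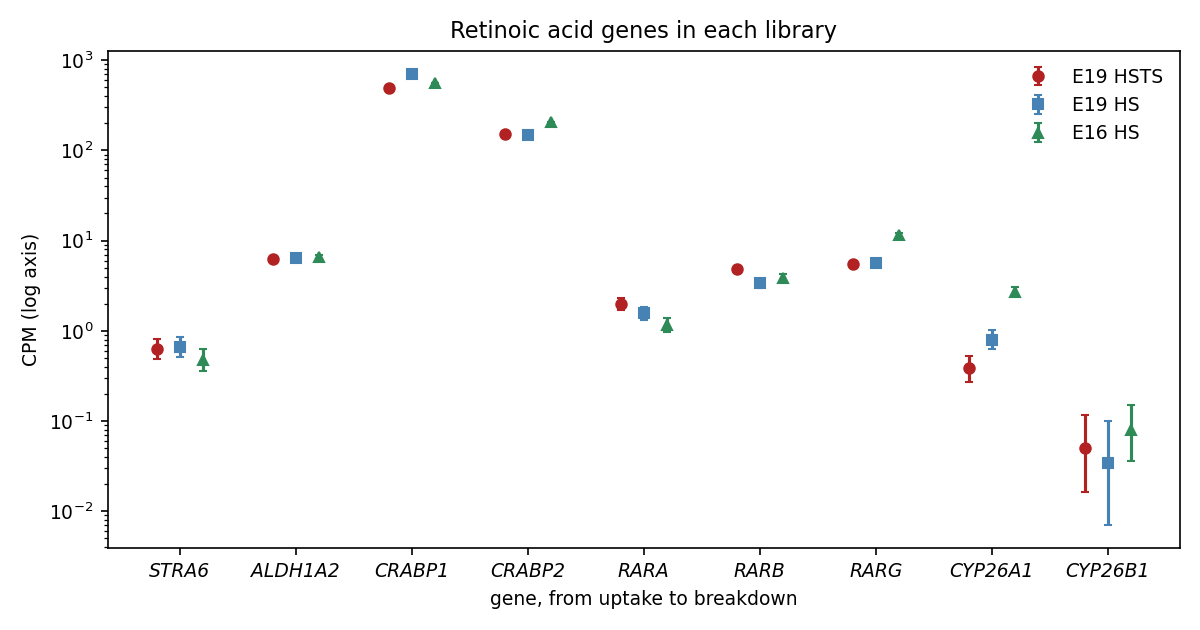
Level of the 9 retinoic acid genes in CPM (log axis) in the 3 libraries, ordered from uptake to breakdown, with points at the library value and bars for the exact Poisson 95% interval, which is smaller than the symbol for abundant genes. *CYP26A1* lay at 0.382 in E19 HSTS and 0.8 in E19 HS, with E16 HS at 2.72, while *ALDH1A2* lay between 6.32 and 6.51. Genes should not be compared with each other by height.

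E16 HS was compared with E19 HS for the difference between days in 1 breed. *CYP26A1* was 3.4-fold higher (95% interval 2.62 to 4.47) and *RARG* 2.03-fold higher (1.83 to 2.25). Thus 2 of the 8 members reached 2-fold higher and 0 reached 2-fold lower, where 6.47 and 5.13% of all 11336 genes with at least 100 UMIs over both libraries did. *RARG* lay at the edge of this limit, with 1.92-fold once blood cells were left out, 1.88-fold at an equal depth of 3000 UMIs and 1.76-fold under TMM scaling. The remaining members moved less. The ratio was 1.39 (1.36 to 1.42) for *CRABP2*, 1.15 (0.994 to 1.34) for *RARB*, 1.02 (0.913 to 1.14) for *ALDH1A2*, 0.79 (0.782 to 0.799) for *CRABP1*, 0.744 (0.581 to 0.952) for *RARA* and 0.717 (0.487 to 1.06) for *STRA6*. With 1 library a day there was no replicate and no test.

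E19 HSTS was compared with E19 HS for the difference between breeds at 1 day. *CYP26A1* was 2.1-fold lower in E19 HSTS (ratio 0.477, interval 0.313 to 0.717), and 1 of the 8 members was thus at least 2-fold lower and 0 higher, against 1.64 and 1.17% of all 11149 genes. The share of blood cells differed between these libraries, and the *CYP26A1* ratio was 0.58 without blood cells. At 3000 UMIs a cell it was 0.522, and the call was lost in both settings while the direction was kept. In the thinned counts only 11 and 21 cells held a *CYP26A1* UMI, too little for a call that needs 100 UMIs. *CRABP1* was 1.44-fold lower in E19 HSTS (ratio 0.694, 0.686 to 0.702), and 0.894 without blood cells. *RARB* was 1.44-fold higher (1.24 to 1.66) and *RARA* 1.28-fold higher (1.02 to 1.6). The ratios of *STRA6* (0.951, 0.656 to 1.38), *ALDH1A2* (0.99, 0.883 to 1.11) and *RARG* (0.98, 0.867 to 1.11) had intervals that held 1. For *CRABP2* the ratio was 1.03 (1 to 1.05). Without blood cells *ALDH1A2* moved to 1.3, *CRABP2* to 1.34 and *RARG* to 1.25. The values of these genes over all cells therefore carry the blood share with them, and what part it has in each was not tested.

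Each marker class was then set against all other kept cells of its library. UMIs were summed per class and library, and edgeR's quasi-likelihood test was run over all genes with the library as a block, so that 3 libraries of different day and breed are the replicates. Adjusted p-values are those of Benjamini and Hochberg over all genes tested. The log2 differences are TMM-scaled, and plain totals raise the median of all genes by 0.24 to 0.40 on that scale. With plain totals 77.9 to 89.6% of all calls were higher in the class, against 35.1 to 57.6% under TMM. No member call changed direction between the scalings.

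*STRA6*, the retinol receptor, was rare and enriched in *MEOX1* cells. It gave 63, 59 and 54 UMIs in all. In *MEOX1* cells it stood at 2.78, 1.71 and 2.46 CPM against 0.465, 0.607 and 0.34 in other cells, with ratios of 5.98 (3.33 to 10.4), 2.82 (1.16 to 5.98) and 7.25 (3.88 to 13.1). The fitted log2 difference was 2.06 ± 0.35 (SE, n = 3 libraries, edgeR adjusted p = 0.00667). Without E19 HSTS the adjusted p was 0.0644. In *SOX2* cells *STRA6* was lower, at 0.212, 0.167 and 0.311 CPM, a log2 difference of -2.02 ± 0.42 (edgeR adjusted p = 0.015). This call rested on 4, 4 and 5 UMIs and was lost without E19 HSTS (adjusted p = 0.105) or without E19 HS (0.0881). Blood cells held 0 *STRA6* UMIs in all 3 libraries, which by a floor of 3 counts per library allows up to 0.0655, 0.118 and 0.106 CPM. *CDH16* cells held none either, and *CDX2* cells held 0, 0 and 9 UMIs.

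*ALDH1A2*, the retinoic acid synthase of the trunk, was higher in *MEOX1* cells and low in *SOX2* cells. In *MEOX1* cells it stood at 15 CPM (12.3 to 18.1), 9.41 (6.84 to 12.6) and 15.1 (12.4 to 18.2), against 5.64, 6.21 and 5.92 in other cells. All 3 libraries had the same direction, with ratios of 2.66, 1.51 and 2.54. The fitted log2 difference was 0.86 ± 0.17 (SE, n = 3, edgeR adjusted p = 0.0129). This call was lost in 4 of 13 alternatives. They were cells with 1 of the 7 markers only, thinning to 3000 UMIs, no library block, and E19 HSTS left out (edgeR adjusted p = 0.096). In *SOX2* cells *ALDH1A2* fell to 1.43, 0.837 and 2.36 CPM, against 7.46, 8.42 and 7.2 elsewhere. The log2 difference was -2.76 ± 0.33 (edgeR adjusted p = 0.0024), past the threshold in 13 of 13 alternatives. The level in *SOX2* cells still lay above that of blood cells in each library (0.458, 0.628 and 0.601 CPM), although in E19 HS the intervals overlapped (0.512 to 1.29 and 0.359 to 1.02).

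In *NEFM* cells with *SOX2*, *ALDH1A2* had only 1, 2 and 5 UMIs, or 0.545, 0.842 and 2.58 CPM. In those without *SOX2* it had 17, 9 and 30 UMIs, or 7.2, 4.26 and 5.42 CPM. The intervals were apart in E19 HSTS (0.0138 to 3.03 and 4.19 to 11.5) but overlapped in the other two libraries. The class as a whole had a log2 difference of -1.09 ± 0.23 (edgeR adjusted p = 0.0495), a call that was lost in 8 of 13 alternatives. *ALDH1A2* was not limited to the marker classes, since cells with none of the 7 markers carried 6.09, 7.78 and 7.38 CPM and 40.2 to 63.3% of its UMIs. *CDH16* cells held 8.55 and 12.5 CPM at day 19, from 26 and 27 UMIs, and the difference did not pass the test.

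The 467, 461 and 592 cells with an *ALDH1A2* UMI were described by the other genes they held. Of them, 18, 8.89 and 15.4% also held *MEOX1*, against 7.55, 4.98 and 5.46% of the cells without *ALDH1A2*. *TWIST1*, a mesoderm transcription factor, was held by 43, 30.2 and 25.8%, against 16.9, 16.8 and 13.7%. *SOX2* showed the opposite, with 4.28, 3.47 and 4.9% against 23.2, 29.3 and 14.8%. *LHX1*, an intermediate mesoderm factor, was held by 9.42, 6.72 and 7.09%, against 2.31, 1.7 and 2.23%, and *EMX2*, a factor of the urogenital ridge, by 21, 20.4 and 10.5%, against 9.16, 8.19 and 5.48%. Depth was alike, with medians of 8374, 7029 and 10133.5 UMIs in cells with *ALDH1A2* and 8700, 6890 and 8985 in cells without.

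*CRABP1*, the more restricted of the binding proteins, was concentrated in neural classes. It stood at 494, 712 and 562 CPM over all cells. In *NEFM* cells it reached 4507.3 CPM (4443.3 to 4572.0), 4175.3 (4115.7 to 4235.5) and 1140.9 (1116.8 to 1165.4), against 317, 527 and 521 in other cells. The ratios of 14.2, 7.92 and 2.19 differed widely between days. The *NEFM* class itself differed too, since the neuron genes *NEFL*, *ELAVL3* and *STMN2* were enriched 26.5- and 17.4-fold in it at day 19 and 2.32-fold in E16 HS. The fitted log2 difference was 2.33 ± 0.42 (SE, n = 3, edgeR adjusted p = 0.035), and it missed the threshold in 5 of 13 alternatives, without E19 HSTS or without E19 HS among them. In *SOX2* cells the levels were 1355.7, 1463.0 and 1281.9 CPM against 292, 435 and 443, with close ratios of 4.64, 3.36 and 2.89. Here the log2 difference was 1.46 ± 0.07 (edgeR adjusted p = 1.9e-04) and it passed in 13 of 13 alternatives. The cells with both *NEFM* and *SOX2* stood highest, at 6442.7, 4701.5 and 1795.3 CPM.

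*CRABP1* was lower in the *MEOX1*, *DCN* and *CDH16* classes. In *MEOX1* cells it stood at 363, 470 and 265 CPM against 504, 725 and 583, a log2 difference of -1.05 ± 0.08 (edgeR adjusted p = 2.2e-04). In *DCN* cells it stood at 240, 289 and 205 CPM against 516, 753 and 728, a log2 difference of -1.69 ± 0.10 (edgeR adjusted p = 0.00136). *CDH16* cells had the least of the 7 classes at day 19, with 41.1 and 94.9 CPM, and held 303 CPM in E16 HS, where only 18 cells made up the class. The log2 difference was -2.80 ± 0.41 (edgeR adjusted p = 2.9e-04, past the threshold in 13 of 13 alternatives). A *CRABP1* UMI was found in 9.75, 10.6 and 13.5% of blood cells, at 44, 44.2 and 64 CPM. The *CDH16* level in E19 HSTS was thus no higher than that of blood cells.

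*CRABP2*, which delivers retinoic acid to the nuclear receptors, was spread more evenly. Its level over all cells was 152, 148 and 206 CPM. It was higher in *MEOX1* cells, at 267, 187 and 370 CPM against 143, 146 and 195 (log2 difference 0.43 ± 0.11, SE, n = 3, edgeR adjusted p = 0.0345), a call lost in 6 of 13 alternatives, without E19 HSTS among them (adjusted p = 0.142). In *CDH16* cells it was lower, at 57.9, 37 and 198 CPM against 155, 151 and 206 (log2 difference -1.46 ± 0.31, edgeR adjusted p = 0.0047), and without E19 HS the adjusted p was 0.0542. Day 16 differed from day 19 in several classes. *SOX2* cells held 312 CPM in E16 HS against 119 in E19 HS, and *CDX2* cells 509 against 242, while *DCN* cells held 131 against 256. The *DCN* cells of the E19 libraries are those with the *APOA2* and *FGG* signal given above, and what part it has here was not tested.

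Of the receptors, *RARA* was low in every class. It gave 198, 138 and 131 UMIs (1.99, 1.56 and 1.16 CPM), and its level in *SOX2* cells was 3.02, 2.14 and 1.43 CPM against 1.75, 1.34 and 1.11. It passed the edgeR test in 0 of the 7 classes at an adjusted p under 0.05, with log2 differences of -0.36 to 0.24, and its unadjusted p was at least 0.192 in each. With plain totals it passed in *SOX2* cells only. Blood cells held less of it, at 0.393, 0.235 and 0.142 CPM.

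*RARB*, a receptor gene that retinoic acid itself induces in many tissues, had its highest class level in *DCN* cells in E19 HS and, beside *SOX2* cells (5.23 CPM), in E16 HS. Over all cells it stood at 4.82, 3.36 and 3.88 CPM. In *DCN* cells the level was 8.54, 6.11 and 5.28 CPM against 4.5, 3.09 and 3.23, with ratios of 1.9, 1.98 and 1.63. The log2 difference of 0.62 ± 0.14 (SE, n = 3, edgeR adjusted p = 0.0476) lay close to the threshold and was lost in 8 of 13 alternatives, among them the one without blood cells. In E19 HSTS the *CDX2* cells held more still, 9.61 CPM from 17 UMIs, against 1.43 from 2 UMIs in E19 HS. A *RARB* UMI was held by 2.99, 2.01 and 1.78% of blood cells, which are deeper than the rest. In *CDH16* cells only 6, 3 and 0 UMIs were found (log2 difference -1.71 ± 0.49, edgeR adjusted p = 0.0265, lost in 8 of 13 alternatives).

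*RARG*, the receptor known from the tail bud and from prechondrogenic mesenchyme, was enriched in *CDX2* cells. There it stood at 11.3 CPM (6.91 to 17.5), 28.5 (20.4 to 38.9) and 44.8 (41.2 to 48.6), against 5.43, 5.28 and 7.17 in other cells. The ratios were 2.08 (1.26 to 3.25), 5.4 (3.81 to 7.47) and 6.24 (5.59 to 6.98). The E19 HSTS interval lay below both others, and all 3 libraries were above 1. The fitted log2 difference was 1.84 ± 0.25 (SE, n = 3, edgeR adjusted p = 1.3e-04), and it was lost in 1 of 13 alternatives, that without the library block (adjusted p = 0.0888). A *RARG* UMI was found in 11.4, 20.5 and 33.7% of *CDX2* cells, against 0.844, 0.216 and 0.969% of blood cells. In *CDX2* cells without *EPCAM* the level was 9.5, 28.1 and 42.5 CPM, and in *EPCAM* cells without *CDX2* it was 4.65, 3.94 and 10.8 CPM.

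In *DCN* cells the direction for *RARG* changed with the day. It was 12.2 against 4.96 CPM in E19 HSTS and 10.1 against 5.22 in E19 HS, but 9.07 against 12.6 in E16 HS. The level in *DCN* cells itself was similar (E16 HS over E19 HS 0.902, interval 0.703 to 1.17), and the other cells went from 5.22 CPM in E19 HS to 12.6 in E16 HS. In *CDH16* cells *RARG* gave 5, 1 and 1 UMIs, a log2 difference of -2.55 ± 0.48 (edgeR adjusted p = 0.00215), which was 0.156 without E19 HS.

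**Figure D2:**
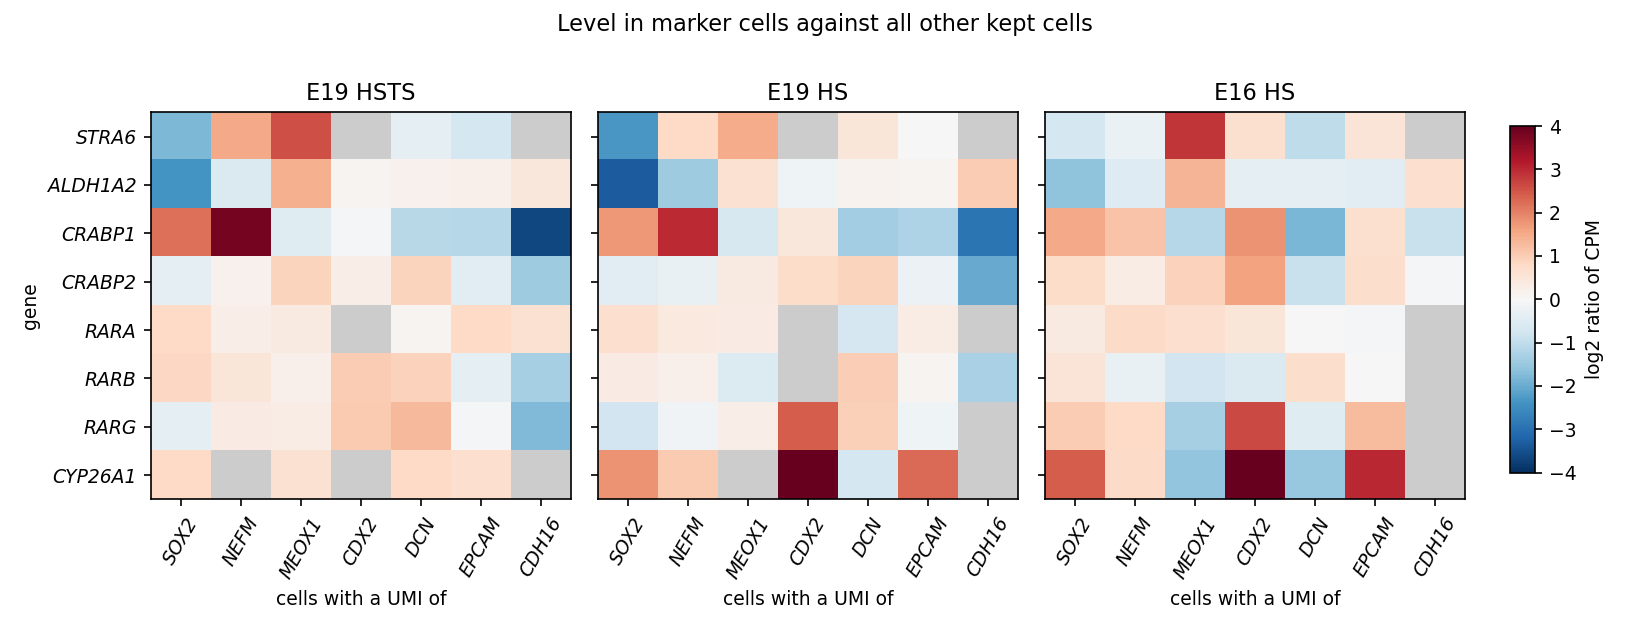
Level of 8 members in each marker class over the level in all other kept cells, as the log2 ratio of CPM, in 1 panel per library. Colours end at 4 and -4, and grey marks classes with fewer than 3 UMIs of the gene. *CRABP1* in *NEFM* cells (ratios 14.2, 7.92 and 2.19), *STRA6* in *MEOX1* cells (5.98, 2.82 and 7.25) and *CYP26A1* in *CDX2* cells of E19 HS and E16 HS (16.7 and 18.8) stand out above 1, and *ALDH1A2* in *SOX2* cells (0.192, 0.0995 and 0.329) below it.

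*CYP26A1*, the enzyme that clears retinoic acid from the tail bud, followed *CDX2* more closely than any other of the 7 markers by its fitted difference. In *CDX2* cells it stood at 1.13 CPM (0.137 to 4.09) in E19 HSTS and 10.7 (5.99 to 17.6) in E19 HS, where E16 HS had 16.9 (14.7 to 19.3), from 2, 15 and 218 UMIs. Other cells held 0.368, 0.641 and 0.897 CPM. The ratios were 16.7 (8.76 to 29.9) in E19 HS and 18.8 (14.7 to 24.3) in E16 HS. In E19 HSTS the ratio of 3.07 had an interval of 0.358 to 11.9, so no enrichment was detectable at this depth. The fitted log2 difference was 3.46 ± 0.40 (SE, n = 3, edgeR adjusted p = 2.9e-05) and passed in 13 of 13 alternatives. In E16 HS the *CDX2* cells, 1213 of 11329, carried 70.8% of all *CYP26A1* UMIs.

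Within the *CDX2* class of E16 HS the cells that also held *EPCAM* had more, at 23 CPM (19.7 to 26.7) against 8.23 (5.98 to 11). In E19 HS the levels were close, at 11.3 and 10.2 CPM from 7 and 8 UMIs, and in E19 HSTS there were 0 and 2 UMIs. *EPCAM* cells without *CDX2* held 0.614, 2.01 and 2.44 CPM. The *EPCAM* class as a whole stood at 0.572, 2.43 and 8.06 CPM against 0.355, 0.506 and 0.994, a log2 difference of 1.93 ± 0.48 that missed the threshold (edgeR adjusted p = 0.0513) and passed it without E19 HSTS. *SOX2* cells stood at 0.583, 1.67 and 8.96 CPM against 0.335, 0.478 and 1.69, and here the difference of 1.60 ± 0.37 passed (edgeR adjusted p = 0.0208). Cells with both markers held 2.31, 12.9 and 26.7 CPM. *SOX2* cells without *CDX2* held 0.5, 1.3 and 2.39 CPM, with ratios to all other cells of 1.41 (0.586 to 3.05), 2.08 (1.25 to 3.41) and 0.866 (0.565 to 1.28). As an alternative, cells with 1 of the 7 markers only were set against cells with none of the 7. That leaves out every overlap, not only that with *CDX2*, and also changes the comparison cells. The edgeR adjusted p was then 0.198. Without E19 HS it was 0.0554.

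**Figure D3:**
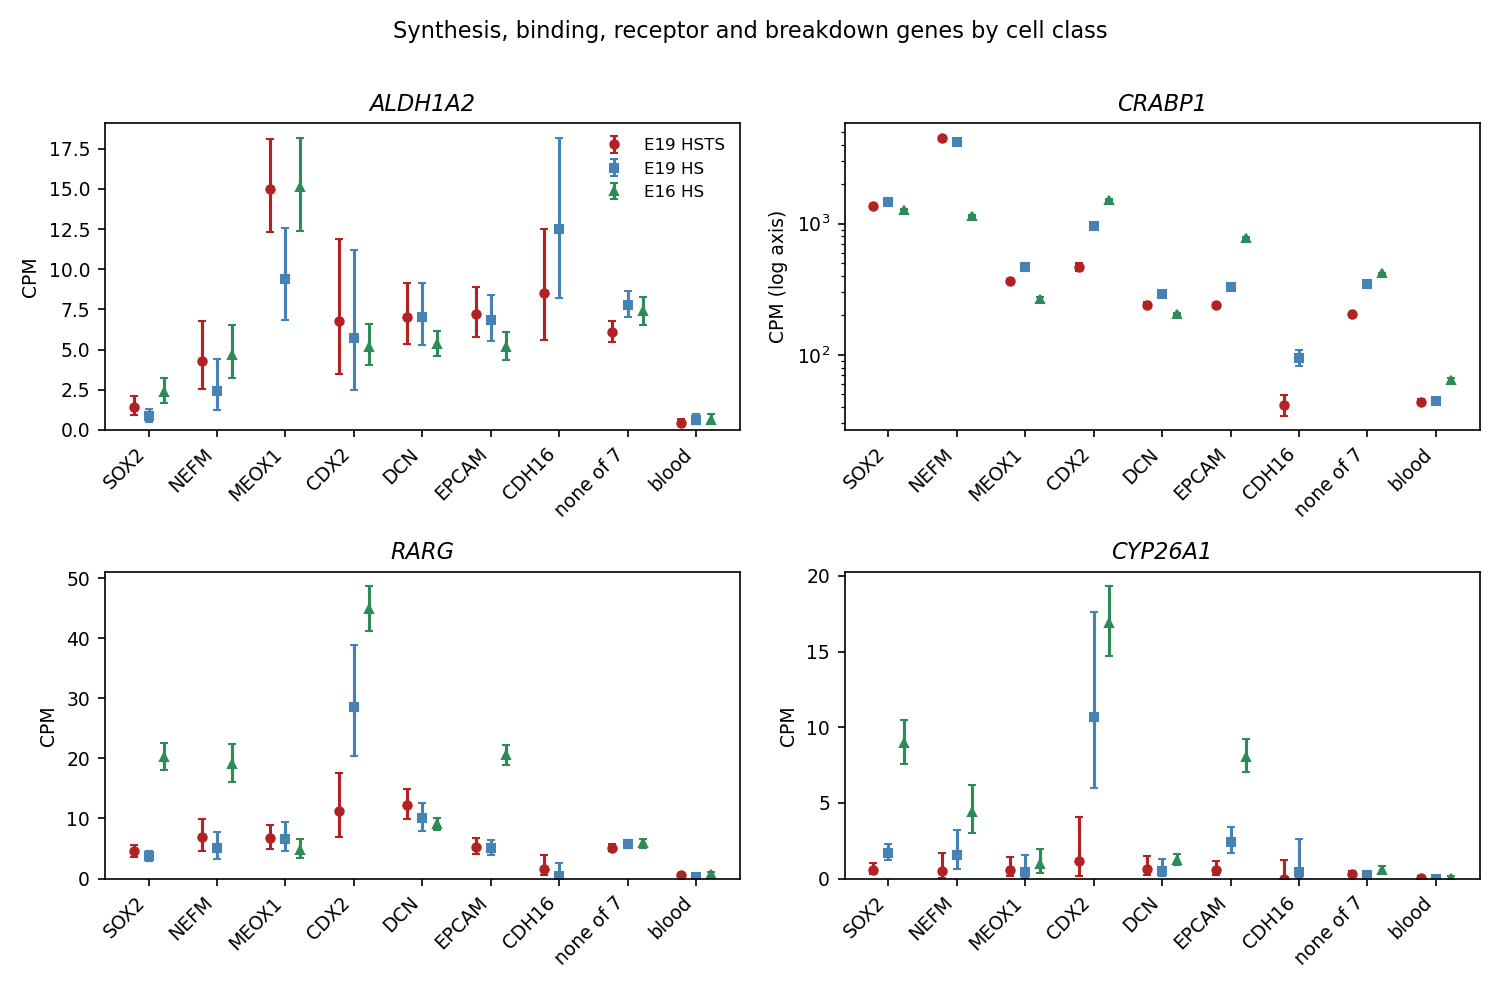
Level of *ALDH1A2*, *CRABP1*, *RARG* and *CYP26A1* in CPM in the 7 marker classes, in cells with none of the 7 markers and in blood cells, by library, with exact Poisson 95% intervals (*CRABP1* on a log axis). The 18 *CDH16* cells of E16 HS are not drawn. *ALDH1A2* is high in *MEOX1* cells (15, 9.41 and 15.1), with a higher value in the *CDH16* cells of E19 HS (12.5), and is low in *SOX2* cells, while *CYP26A1* and *RARG* peak in the *CDX2* cells of E19 HS and E16 HS.

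Few cells held *CYP26A1*, 36, 56 and 192 in all, or 0.374, 0.527 and 1.69% of the kept cells, against 0.115, 0 and 0.051% of blood cells. In E16 HS these cells carried further tail bud genes. *CDX2* was found in 65.6% of them (58.4 to 72.3%, exact binomial interval) against 9.76% of the other cells. *FGF8*, a growth factor of the tail bud and other signalling centres, was found in 60.9 against 6.72%, *CDX4* in 39.1 against 4.79%, *FGF17* in 35.9 against 2.09% and *T* in 24 against 1.07%. *RARG* was found in 38 against 8.82%.

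In E19 HS the shares were smaller, in cells with *CYP26A1* and in the others. There *CDX2* was found in 17.9% (8.91 to 30.4%) against 1.43%, *EPCAM* in 42.9 against 13.2%, *FGF8* in 14.3 against 2.59% and *CDX4* in 8.93 against 0.662%. *SOX2* was found in 50% against 28.1%. In E19 HSTS the 36 cells were of another makeup. Only 2 held *CDX2* (5.56%, 0.68 to 18.7%), 1 held *FGF8*, 1 held *T* and 0 held *CDX4* or *FGF17*, while 17 held *TWIST1* (47.2%, 30.4 to 64.5%, against 18% of cells without it). For E19 HS and E16 HS, *TWIST1* was found in 12.5% (5.18 to 24.1%) and 7.29% (4.04 to 11.9%) of the cells with *CYP26A1*.

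Synthesis and breakdown genes were seldom held by the same cell. Among cells with *CYP26A1*, 1 of 36, 1 of 56 and 7 of 192 also held *ALDH1A2*, or 2.78, 1.79 and 3.65%, against 4.86, 4.35 and 5.25% of the other cells. With counts this low the intervals (0.0703 to 14.5%, 0.0452 to 9.55% and 1.48 to 7.37%) held the shares of the other cells in each library. A lower share was thus not detectable at this depth.

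**Figure D4:**
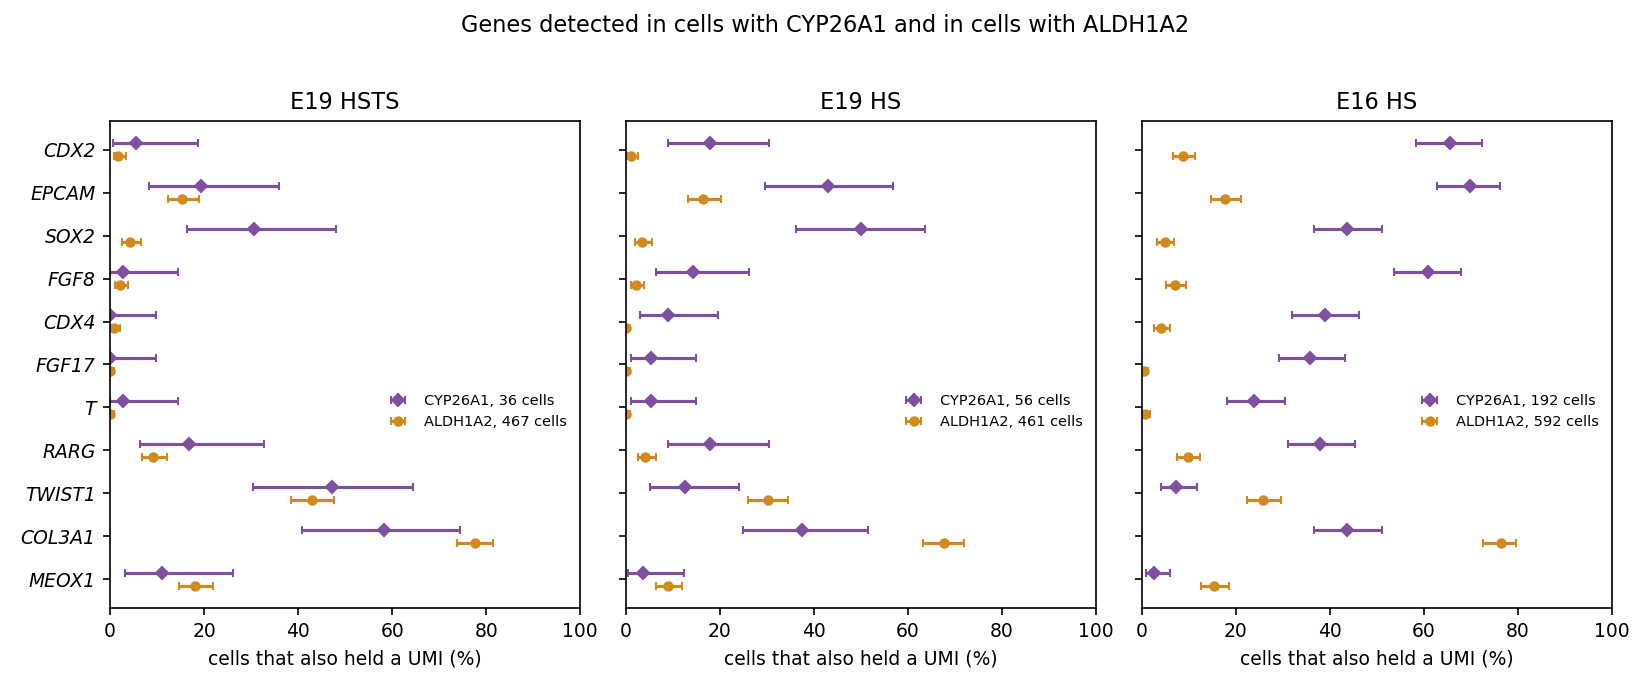
Share of cells (%) that held at least 1 UMI of 11 named genes, among cells with *CYP26A1* (diamonds) and cells with *ALDH1A2* (circles), in 1 panel per library, with exact binomial 95% intervals. In E16 HS, 65.6% of the cells with *CYP26A1* and 8.78% of those with *ALDH1A2* held *CDX2*, and 43.8% and 76.4% held *COL3A1*. In E19 HSTS, where 36 cells held *CYP26A1*, these intervals are wide.

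Counted over the classes, 2 of the 8 tested members were higher in *SOX2* cells (*CRABP1*, *CYP26A1*) and 2 lower (*ALDH1A2*, *STRA6*), where 15.1 and 17.8% of all 12760 genes tested passed. In *NEFM* cells 1 was higher and 1 lower, against 1.76 and 3.06% of all genes, and in *MEOX1* cells 3 were higher and 1 lower, against 6.19 and 10.4%. Without E19 HSTS 0 were higher in either class, and without E19 HS 0 were higher in *NEFM* cells. In *CDX2* cells 2 were higher and 0 lower, against 5.29 and 9.76%, and DESeq2 also gave 0 lower. With edgeR, *ALDH1A2* in *CDX2* cells had an unadjusted p of 0.0117 and a log2 difference of -0.59. Without E19 HSTS, *CRABP1* and *CRABP2* passed in *CDX2* cells too, making 4. The shares of all genes given here are from the run with all 3 libraries. Counts with a library left out therefore have no share of all genes to be read against. In *DCN* cells 1 was higher and 1 lower, against 5.6 and 4.12%, with 0 higher when either day 19 library was left out and 3 (*CRABP2*, *RARB*, *RARG*) when E16 HS was. In *EPCAM* cells 0 passed in either direction with edgeR, against 8.35 and 7.41% of all genes, while *CYP26A1* alone was higher at an unadjusted p under 0.05 and by DESeq2. In *CDH16* cells 0 were higher and 4 lower (*CRABP1*, *CRABP2*, *RARB*, *RARG*), against 9.63 and 7.63%, and the 0 higher held at an unadjusted p under 0.05 and with DESeq2. The median log2 difference of the members there was -1.94, where that of all genes was -0.09. It takes in fitted differences from near-empty counts, as *CDH16* cells held no *STRA6* UMI and 0, 1 and 0 *CYP26A1* UMIs. In the other 6 classes the members' median lay between -0.37 and 0.13.

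The breeds at day 19 were also set against each other within classes. For *CYP26A1* in *CDX2* cells 2 UMIs in E19 HSTS stood against 15 in E19 HS (ratio 0.106, 0.0117 to 0.455), in *EPCAM* cells 7 against 33 (0.236, 0.0879 to 0.541) and in *SOX2* cells 11 against 40 (0.348, 0.161 to 0.691). The ratio was 0.306 (0.031 to 1.6) in *NEFM* cells, 1.3 (0.186 to 14.4) in *MEOX1* cells and 1.23 (0.265 to 6.22) in *DCN* cells, from 2 to 7 UMIs a library, and *CDH16* cells held 0 and 1 UMI. In cells with none of the 7 markers the ratio was 1.11 (0.501 to 2.55). The last interval overlaps those of the *EPCAM* and *SOX2* cells but not that of the *CDX2* cells, and as 1 library stands on each side no test of their difference was run. *RARG* in *CDX2* cells was also lower in E19 HSTS (0.396, 0.22 to 0.694), although over all cells its ratio was 0.98. So was *CRABP1* in *CDX2* cells (0.486, 0.445 to 0.531). *RARB* went the other way, with a ratio of 1.89 (1.44 to 2.48) in *SOX2* cells and 6.74 (1.6 to 60.1) in *CDX2* cells. The *CDX2* cells of the 2 libraries were similar in number, 176 and 161, but those of E19 HSTS held 1 *T* UMI and those of E19 HS 16.

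Between the days, E16 HS over E19 HS, *RARG* was 5.44-fold higher in *SOX2* cells (4.29 to 6.96), 4.05-fold in *EPCAM* cells (3.15 to 5.27) and 1.57-fold in *CDX2* cells (1.14 to 2.22). Cells with none of the 7 markers had a ratio of 1.02 (0.852 to 1.22). *CYP26A1* was 5.35-fold higher in *SOX2* cells (3.75 to 7.8) and 3.32-fold in *EPCAM* cells (2.29 to 4.94), with 1.58 (0.936 to 2.87) in *CDX2* cells, an interval that held 1. The *CDX2* class numbered 161 cells in E19 HS and 1213 in E16 HS, and its cells made up 2.57 and 22.8% of the *SOX2* class and 4.73 and 26.8% of the *EPCAM* class. Once these were left out, *CYP26A1* stood in E19 HS and E16 HS at 1.3 (0.876 to 1.85) and 2.39 CPM (1.59 to 3.45) in *SOX2* cells and at 2.01 (1.31 to 2.94) and 2.44 CPM (1.8 to 3.22) in *EPCAM* cells. *RARG* then stood at 2.94 (2.29 to 3.73) and 8.36 CPM (6.79 to 10.2) in *SOX2* cells and at 3.94 (2.93 to 5.18) and 10.8 CPM (9.46 to 12.4) in *EPCAM* cells. *CRABP1* in *NEFM* cells was 3.66-fold lower in E16 HS (ratio 0.273, 0.266 to 0.28), beside the weaker neuron genes of that class. *ALDH1A2* was 1.6-fold higher in *MEOX1* cells (1.12 to 2.33) and 2.82-fold in *SOX2* cells (1.6 to 5.12), from 38 and 20 UMIs.

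A further list held 40 genes of uptake, synthesis, receptors, coregulators, breakdown and known targets. Of the 33 with enough UMIs, 1 was at least 2-fold higher and 1 at least 2-fold lower in E19 HSTS against E19 HS. Among all genes 1.17 and 1.64% were. In E16 HS against E19 HS 6 of the 33 were higher and 2 lower, against 6.47 and 5.13% of all genes. The synthesis enzymes *ALDH1A1* and *ALDH1A3*, which make retinoic acid in epithelia and the eye, were the ones lower at day 16, with 21 against 296 UMIs (ratio 0.0556, 0.0339 to 0.0866) and 8 against 159 (0.0394, 0.0167 to 0.0796). *ALDH1A3* was also lower in E19 HSTS than in E19 HS, with 51 against 159 UMIs (0.286, 0.204 to 0.394). *DHRS3*, which turns retinaldehyde back into retinol, was higher in E19 HSTS (2.37, 1.76 to 3.23) and in E16 HS (4.16, 3.16 to 5.55) than in E19 HS. It was held by 2.38, 1.37 and 4.33% of blood cells, which are deeper, and by 1.45, 0.367 and 1.3% of *SOX2* cells. In CPM, *DHRS3* stood at 1.35, 0.746 and 3.11 in blood cells and at 1.64, 0.461 and 1.43 in *SOX2* cells. *DCN* cells held 3.14, 1.02 and 4.35 CPM of it. *CYP26C1*, the third breakdown enzyme of the family, had only 12, 39 and 10 UMIs.

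By class *ALDH1A1* and *ALDH1A3* lay apart from *ALDH1A2*. *ALDH1A3* stood at 2.17, 5.4 and 0.311 CPM in *SOX2* cells against 0.124, 0.463 and 0.0309 in others (log2 difference 3.28 ± 0.25, SE, n = 3, edgeR adjusted p = 5.7e-04), and its UMIs came from 13, 47 and 3 *SOX2* cells. *EPCAM* cells held 2.62, 7.88 and 0.181 CPM of it against 0.218, 0.692 and 0.0351 (log2 difference 2.96 ± 0.26, edgeR adjusted p = 0.00292). The classes overlap, as 31.9, 41.9 and 33.9% of *EPCAM* cells held *SOX2*. *SOX2* cells carried 80.4, 81.1 and 62.5% of all *ALDH1A3* UMIs and *EPCAM* cells 62.7, 67.3 and 62.5%. Both differences therefore rest in part on the same UMIs. *ALDH1A1* was higher in *SOX2* (1.61 ± 0.32, edgeR adjusted p = 0.0125), *EPCAM* (2.51 ± 0.45, 0.0218) and *CDH16* cells (1.60 ± 0.38, 0.00991) and lower in *MEOX1* cells (-3.11 ± 0.47, 0.00431), the class in which *ALDH1A2* was higher. In *MEOX1* cells *ALDH1A1* gave only 2, 2 and 1 UMIs. The *ALDH1A1* ratio there had an interval that held 1 in E16 HS (0.725, 0.0175 to 4.53). Its level in *SOX2* cells was 6.57, 7.5 and 0.124 CPM against 1.13, 1.8 and 0.196, from 23, 39 and 2 cells, so that E16 HS (ratio 0.636, 0.0719 to 2.64) did not share the direction. *RDH10*, which makes the retinaldehyde that the synthases use, was lower in *SOX2* cells (-0.97 ± 0.22, edgeR adjusted p = 0.0213), as *ALDH1A2* was. It was higher in *CDH16* cells (1.37 ± 0.41, edgeR adjusted p = 0.0328). In *MEOX1* cells *RDH10* stood at 6.12, 2.35 and 4.38 CPM against 2.41, 1.89 and 1.93 in others, but it was not among the list genes that passed there. *FGF8* was higher in *CDX2* cells beside *CYP26A1*, at 10.2, 60.6 and 108 CPM against 5.14, 5.75 and 8.64 (2.64 ± 0.34, edgeR adjusted p = 6.7e-05). In *SOX2* cells 11 higher and 7 lower of 35 list genes tested passed, against 15.1 and 17.8% of all genes. For *NEFM* it was 1 and 1 of 35 (all genes 1.76 and 3.06%) and for *MEOX1* 8 and 3 of 33 (6.19 and 10.4%). *CDX2* cells had 5 and 4 of 34 (5.29 and 9.76%) and *DCN* cells 2 and 5 of 34 (5.6 and 4.12%). *EPCAM* cells had 5 and 5 of 34 (8.35 and 7.41%) and *CDH16* cells 7 and 4 of 33 (9.63 and 7.63%).

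For the 7 members with at least 300 UMIs, the genes with the most similar levels were ranked by Pearson's r of log2(CPM + 1) over 24 points, the 7 classes and blood cells in each of the 3 libraries. These points share libraries and, in part, cells, so r is a description. *CYP26A1* was most like *PCP4*, *CDX4* and *RAB3B* (r = 0.95 for each), and *RARG* most like *NKD1* (0.90), *SCPEP1* and *IL17RD* (both 0.89). *CRABP1* followed the neuronal genes *STMN2* (0.94), *TUBA1A* and *MAP1B* (both 0.92). *CRABP2* followed *COL2A1* (0.97), the cartilage collagen, with *FBN2* and *FSTL1* (both 0.96). *ALDH1A2* was most like *LHFPL2* (0.91), with *NRP1* and *CGNL1* (both 0.88). *RARA* had *RAVER2* (0.93), *ZNF175* (0.92) and *NR1D2* (0.90), and *RARB* had *DVL2* (0.88), *KLHL15* (0.87) and *CNTN4* (0.86).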

How the data were processed

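Whole-embryo cells were sequenced with the 10x 3′ v3.1 kit. The authors aligned reads to Ovis_aries_genome_v1.0 and made the UMI tables with Cell Ranger 6.1.2 (the submitters' notes also name R 4.1.2 and Seurat 4.1.1). The deposited values are these raw counts, for barcodes called as cells, with 94754580 to 128271878 UMIs a library.

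A cell was kept if it had 200 to 6000 genes and 1000 to 30000 UMIs, of which no more than 10% were mitochondrial. Counts were read in Python 3.11.15 (numpy 2.4.6, scipy 1.17.1, pandas 2.3.3). CPM carry exact Poisson intervals, ratios exact conditional binomial intervals and shares exact Clopper-Pearson intervals, at the 95% level. A 2-fold call needed at least 100 UMIs over both libraries. Blood cells held at least 2 UMIs of each of at least 3 of *AHSP*, *BLVRB*, *ALAS2*, *KLF1*, *HEMGN* and *SLC4A1*. Class sums were tested with edgeR 4.0.16 in R 4.3.3 (TMM, filterByExpr, quasi-likelihood, library as a block), calling at an adjusted p under 0.05. Within each class, deviations from the class means correlated between the 2 sums of a library (r = 0.18 to 0.66). The interval and class tests were tested on simulated data.

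Scrublet in scanpy 1.11.5 marked 2, 1 and 202 cells, too few at day 19 to have worked, and no doublet was removed. Alternatives were stricter filters, at least 2 marker UMIs, cells with 1 marker only, blood cells left out, thinning to 3000 UMIs, the 8% highest doublet scores left out, DESeq2 1.42.0, no filter on low counts, no block and each library left out. Cells with 1 marker only were set against cells with no marker, and not against all other kept cells. Plain totals were added after seeing the data. The 9 members, the marker classes and the gene lists were chosen with earlier results of these data known. Named genes are all members and, for the wider pathway, those set in a list of 44, of which 40 were found by symbol. Sequences and genome positions were not used here.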

Additional observations from a re-analysis of the deposited data

Results flagged for a closer look

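Some members stood above other cells in a class in 1 library and below them in another, as plain ratios of CPM whose intervals exclude 1. The difference between the libraries was not tested, since each condition is 1 library. Between the days, *RARG* in *SOX2* cells was 2.03 times the level of other cells in E16 HS and 0.587 times in E19 HS, and in *DCN* cells 0.722 and 1.93 times. *CRABP2* turned in 4 classes. It stood at 1.65 in E16 HS and 0.752 in E19 HS in *SOX2* cells, at 0.544 and 1.86 in *DCN* cells and at 1.63 and 0.853 in *EPCAM* cells. In *NEFM* cells it stood at 1.23 in E16 HS, 0.811 in E19 HS and 1.13 in E19 HSTS, so that there the day 19 libraries differed as well. *CRABP1* in *EPCAM* cells was 1.57 in E16 HS and 0.425 in E19 HS.

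The makeup of these classes also differed between the days. *CDX2* cells numbered 1213 in E16 HS and 161 in E19 HS and held high *RARG* and *CRABP2*. The *DCN* cells of E19 HS held 20.1-fold more *APOA2* and *FGG* than other cells, and those of E16 HS 0.335-fold. In *SOX2* cells without *CDX2* the *RARG* ratio was below 1 on both days, at 0.708 (0.57 to 0.87) in E16 HS and 0.446 (0.34 to 0.577) in E19 HS, while that of *CRABP2* was 1.55 and 0.737. In *EPCAM* cells without *CDX2* the *CRABP2* ratio was 1.12 and 0.813, and that of *CRABP1* was below 1 on both days, at 0.786 (0.769 to 0.803) and 0.397 (0.384 to 0.41). What part this makeup has in the ratios was not tested for any class.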

How the results depend on the processing

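No member difference between classes past the threshold reversed under any alternative run, and no ratio between libraries was counted as reversed. Ratios close to 1 could still cross it. Those of *ALDH1A2* and *RARG* in E19 HSTS against E19 HS did so once blood cells were left out. Of 232 alternative values for the 18 class differences past the threshold, 177 stayed past it and 55 did not, and of 124 for the ratios between libraries 101 moved by less than their interval and 23 by more. The 4 class differences that passed in every alternative run were *CYP26A1* in *CDX2* cells, *ALDH1A2* and *CRABP1* in *SOX2* cells and *CRABP1* in *CDH16* cells. Where counts changed, the cause was not tested. The 1 member lower in E19 HSTS became 0 without blood cells, thinned (with a UMI of it in 11 and 21 cells) or without the highest doublet scores (where under 100 UMIs were left). The 2 higher in E16 HS became 1, *CYP26A1*, without blood cells, thinned or under TMM. Members higher in *SOX2* cells were 1 with 1 marker only or thinned, and 4 with plain totals. In *NEFM* cells they were 0 with at least 2 marker UMIs or without blood cells, and in *MEOX1* cells 1 with 1 marker only or thinned. In *CDX2* cells they were 4 with 1 marker only, without a filter on low counts or with plain totals. In *DCN* cells they were 0 with the stricter cell filter, without blood cells, thinned, without the highest doublet scores or without a filter on low counts. In *EPCAM* cells 1, *CYP26A1*, passed with the stricter filter, 1 marker only, thinned, without the highest doublet scores, with DESeq2, without a filter on low counts or with plain totals. In *CDH16* cells the count stayed 0. Without the library block, which drops the pairing of the 2 sums of a library, the counts were 1 in *SOX2*, 0 in *NEFM*, 0 in *MEOX1*, 1 in *CDX2* and 0 in *DCN* cells. With each library left out in turn they ranged from 1 to 2 in *SOX2*, 0 to 1 in *NEFM*, 0 to 3 in *MEOX1*, 2 to 4 in *CDX2*, 0 to 3 in *DCN* and 0 to 1 in *EPCAM* cells. Of 189 shares of cells with a member's UMI (9 members, 7 classes, 3 libraries), 112 lay above that of blood cells, 89 when thinned, and 66 when at least 2 UMIs were asked for. Depth limits *STRA6*, *CYP26A1* and *CYP26B1* most.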
